A study of Mus musculus with 17 samples.

Results

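The genes described here encode the machinery that brings nuclear-encoded proteins into mitochondria, measured by bulk RNA sequencing of blood-forming stem cells (HSCs) sorted from C57BL/6 Jrj mice. Members were protein-coding genes of GENCODE M21 on GRCm38 whose symbol starts with Tomm (10 genes) or Timm (16 genes), or is one of 12 further symbols for import motor, SAM, processing peptidase and MIA genes. All 38 were among the 54838 genes counted. They covered the TOM complex (10), the SAM complex (3), the TIM23 translocase (5), its import motor (6), the TIM22 translocase (2), the small TIM chaperones (7), the matrix processing peptidase (2) and the MIA pathway (2). Timmdc1, a complex I assembly factor, entered by its symbol alone, and Tomm34 is a cytosolic co-chaperone rather than a subunit of the pore.

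The 17 libraries fell into 4 groups. Young controls (n = 4) and young mice given CCCP (n = 5) were 8 to 12 weeks old, while old controls (n = 3) and old mice given Mito-Q (n = 5) were aged over 18 months. The protonophore CCCP, which collapses the mitochondrial membrane potential, was injected intraperitoneally on 1 occasion at 0.3 mg/kg. The antioxidant Mito-Q, a ubiquinone that gathers in mitochondria, was injected intraperitoneally on 5 consecutive days at 2 mg/kg. Live Lin- cKit+ Sca1+ CD48- CD150+ marrow cells, the SLAM-gated HSCs, were sorted from cKit-enriched marrow, and libraries were made by a Nextera XT protocol in reduced volume. The labels named no vehicle for the controls, no interval after the last injection and no link between a library and a single mouse, so p-values measure the spread between libraries, which may be partly technical.

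Most mitochondrial proteins are made in the cytosol and enter through the TOM pore of the outer membrane. The SAM complex inserts beta-barrel proteins into that membrane, and the MIA pathway oxidises small cysteine-rich proteins in the intermembrane space. Small TIM chaperones carry hydrophobic precursors across that space to TIM22, which inserts carriers into the inner membrane. Precursors with a cleavable presequence pass instead through TIM23, are pulled in by an ATP-driven motor and lose their presequence to the matrix peptidase. Insertion by TIM22 and passage through TIM23 both need the membrane potential, the quantity that CCCP collapses. HSCs are known for low reliance on oxidative phosphorylation, and their mitochondrial function is known to change with age.

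Each library held 5649611 to 8120443 reads in genes, and 37.7% to 76.2% of the reads recorded in a file were assigned to no gene. The share of reads that did not align uniquely was above 9% in 4 libraries: young control 3 (11.8%), old controls 2 (11.5%) and 3 (10.8%), and old Mito-Q 3 (10.5%). It lay between 5.7% and 8.1% in the other 13. By median Spearman correlation with the rest of the libraries, young CCCP 3, old control 1 and young control 3 were the lowest (0.682, 0.799 and 0.803). Calls and medians of the members that rest on them are given with and without them. All 10 HSC gate and identity genes, among them Kit, Ly6a, Slamf1, Procr and Mecom, were above 0 CPM (reads scaled to library size with TMM factors) in every library. Of the genes that the gate excludes, 8 were summed, to between 0.95 and 70.5 CPM. The 12 neutrophil and granule genes summed to 447 to 2211 CPM in young controls, 772 to 16547 with CCCP, 1097 to 2399.9 in old controls and 988 to 14372 with Mito-Q, and Ctsg and Mmp8 among them were at 0 in 2 libraries and 1 library. The sum of 9 erythroid genes was 1772 to 2184 CPM in young controls and 1769, 4019 and 3837 CPM in old controls 1 to 3, with Car1 at 0 in 2 libraries and Klf1 in 1. Most of that sum was Car2, at 1686.6 to 2028.2 CPM in young and 1662.7 to 3692.8 CPM in old controls. No other gene of this list exceeded 163.2 CPM in these groups. The 15 immediate early genes summed to 8392 to 15158 CPM in young controls, 426 to 775 with CCCP, 1096 to 1905 in old controls and 15782 to 28108 with Mito-Q.

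Of the 38 members, 36 passed the filter on low counts. Tomm6, a small TOM subunit, peaked at 1.09 CPM and shared 84.17% of its annotated exon bases with neighbouring genes. Timm8a2, a paralogue of Timm8a1, had 0 reads in 13 of 17 libraries and peaked at 3.23 CPM. A total of 3 reads, taken as the floor, equals 0.298 to 0.653 CPM by library, so both lay close to what this depth can resolve. Tomm20l, a homologue of the receptor Tomm20, was tested but had 0 reads in 7 libraries. Per kilobase of transcript (the median length of a gene's protein-coding transcripts) and averaged over the 17 libraries, the highest levels were those of Timm13, at 279 ± 171 CPM per kb (SD), Timm17a, at 155 ± 87.9, Tomm5, at 136 ± 88.5, Timm8b, at 128 ± 83.5, and Tomm7, at 122 ± 82.1. Neighbours in that order differed by less than the larger of their SDs. The pore Tomm40 stood at 33.7 ± 15.2 CPM per kb, the receptor Tomm70a at 22.7 ± 4.06 and the co-chaperone Dnajc15 at 11.6 ± 7.37. The lowest tested members were Tomm40l, at 1.5 ± 0.83, and Tomm20l, at 1.20 ± 1.73 CPM per kb. The order depended on the length used: with all annotated exon bases, Timm17a fell from 155 to 12.5 and Timm13 from 279 to 110.5 CPM per kb.

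Old and young controls were compared first. Import genes had higher mean levels in old HSCs, most of all the small TIM chaperones, but none of the 36 passed edgeR's quasi-likelihood test after Benjamini-Hochberg adjustment over 24523 genes, where 1.69% of all genes did. The median log2 fold change of the members was 0.51, against 0.16 over all genes, and 30 of 36 were above 0, as were 55.4% of all genes. At an unadjusted p below 0.05, 6 members (16.7%) were higher, namely Timm9, Timm10, Timm10b, Timm13, Timm17b and Tomm5, against 6.77% of all genes, and 0 were lower against 7.45%. Because the RNA is bulk, fewer cells of a type and less RNA per cell cannot be told apart. Other genes moved with age too: 12 of 15 immediate early genes were called lower in old controls, 1 of 12 neutrophil and granule genes and 3 of 7 tested megakaryocyte genes were called higher, and 0 of 9 erythroid genes were called. Their part in the members' differences was not tested.

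**Figure D1:**
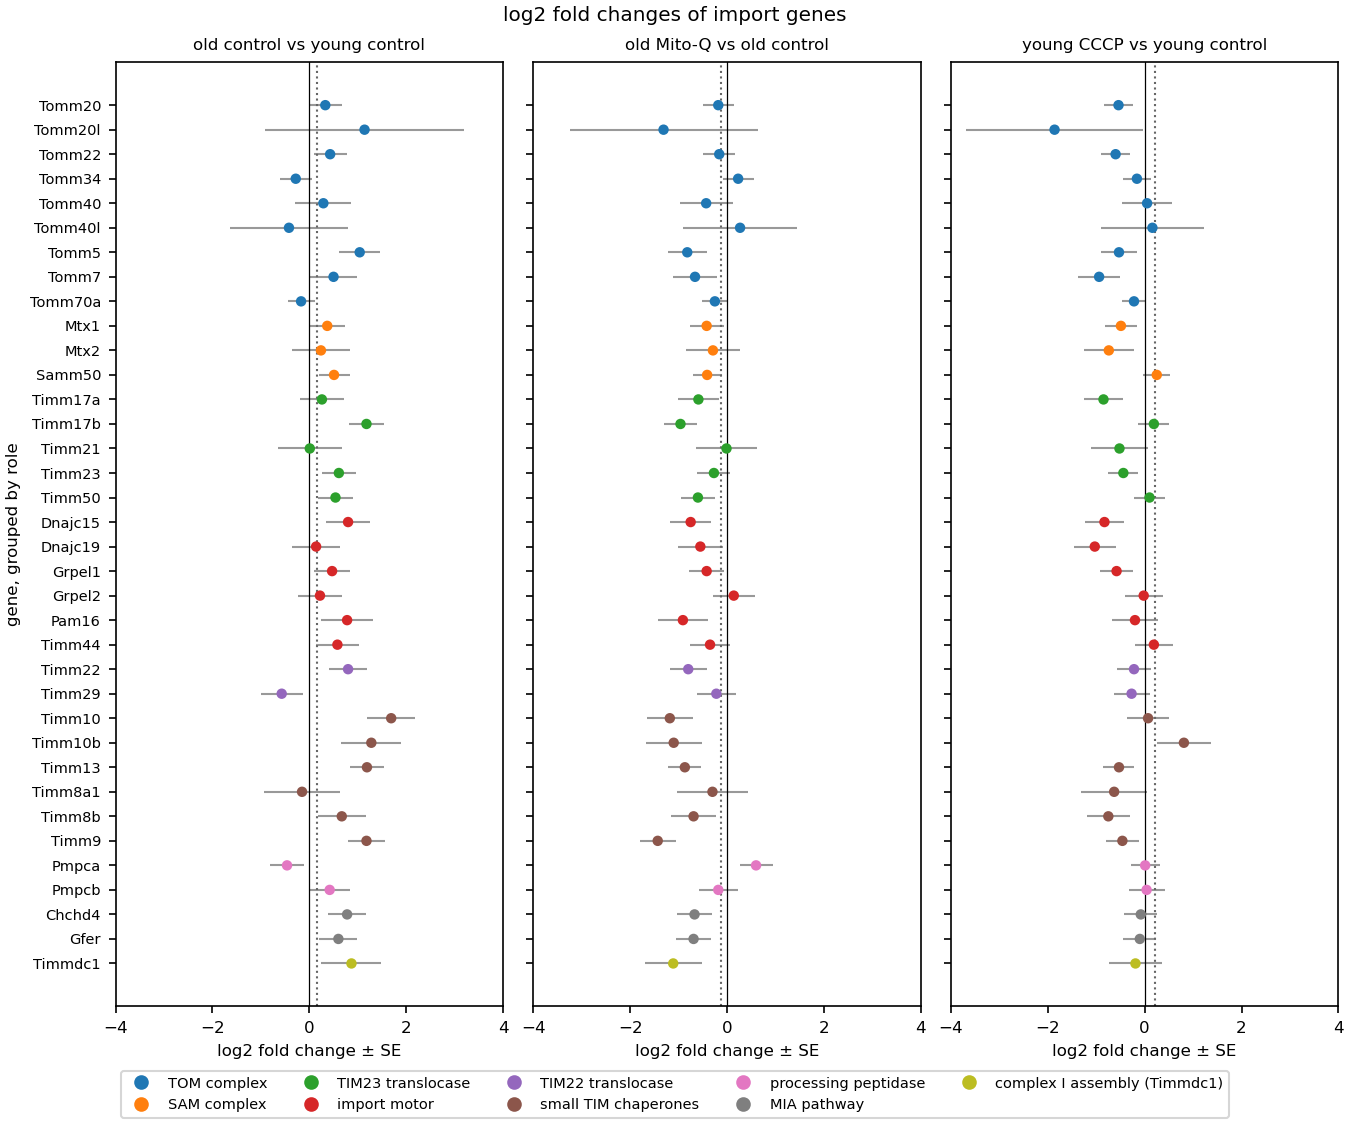
Log2 fold change (dots) with its standard error (bars) for the 36 tested import genes, coloured by role, in 3 comparisons. The dotted line marks the median over all genes tested, at 0.16, -0.12 and 0.21 from left to right. Among roles with more than 1 gene, the small TIM chaperones have the medians farthest from 0 for age (1.18) and Mito-Q (-0.98).

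Among the small TIM chaperones the median log2 difference between old and young controls was 1.18 over 6 tested genes, 5 of them above 0. Timm9 and Timm10 form the ring-shaped hexamer that shields carrier precursors. Timm9 (chromosome 12, 71123173 to 71136684, minus strand) measured 44.95, 40.5, 55.5 and 52.0 CPM in young controls 1 to 4 and 66.9, 106 and 154 CPM in old controls 1 to 3. Every old control lay above every young control, which held for 1 of 36 members (2.78%) and 5.04% of all genes. Its log2 fold change was 1.18 (SE 0.39) with an adjusted p of 0.14 by edgeR's quasi-likelihood test. Timm10 (chromosome 2, 84826997 to 84830213, plus strand) measured 20.6, 42.8, 56.6 and 25.0 CPM in young controls and 54.0, 117 and 179 CPM in old controls. Old control 1 fell between the 2 highest young controls, and the other old controls lay above all of them. The log2 fold change of Timm10, the largest of any member, was 1.69 (SE 0.50) with an adjusted p of 0.0902 by edgeR's test.

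Timm13, which works with Timm8 proteins in another chaperone hexamer (chromosome 10, 80899450 to 80900969, minus strand), measured 101, 108, 206 and 86.8 CPM in young controls and 139, 283 and 436 CPM in old controls. Young control 3 was the only young library above old control 1. The log2 fold change of Timm13 was 1.19 (SE 0.36), adjusted p 0.0971 by edgeR's test. Timm10b, the chaperone that docks the hexamer on TIM22, was low throughout, at 4.21, 8.19, 22.0 and 8.20 CPM in young and 12.9, 22.9 and 41.6 CPM in old controls. Its groups overlapped through young control 3, and 22.11% of its exon bases are shared with Arfip2 and other genes. Timm8b, partner of Timm13, measured 35.6, 40.9, 158 and 36.8 CPM in young and 55.6, 107 and 161 CPM in old controls. Young control 3 again came close to the highest old control, and the log2 fold change of 0.67 (SE 0.49) did not pass. Timm8a1, whose human counterpart is mutated in deafness-dystonia syndrome, was the member of the class with no higher mean, at 12.1, 7.37, 20.0 and 7.54 CPM in young and 3.45, 12.0 and 16.3 CPM in old controls.

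**Figure D2:**
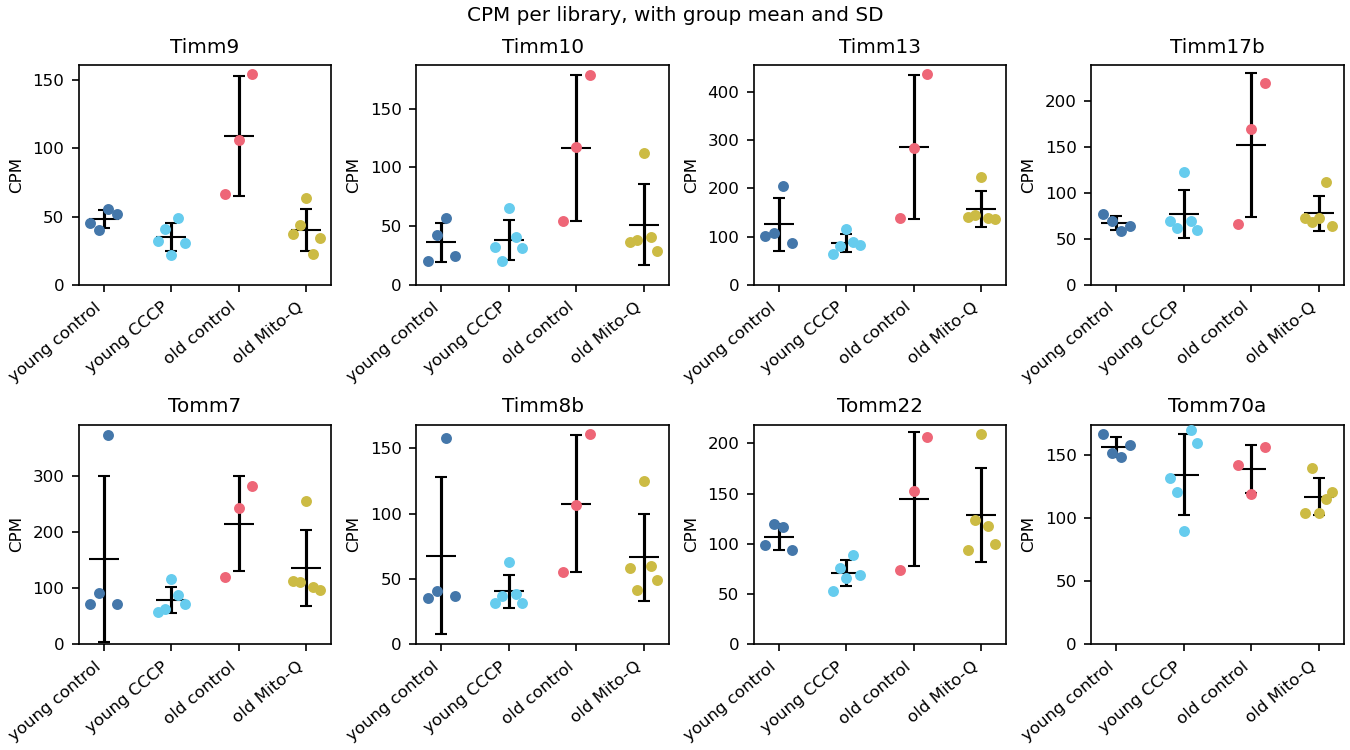
CPM in each library (dots) for 8 import genes in the 4 groups, with the group mean and SD as bars. Old controls spread widely, Timm9 is the gene whose old controls all lie above the young ones, and 1 young control stands high for Tomm7, at 374 CPM, and Timm8b.

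Promoters are shown for the 4 members that DESeq2 called in this comparison, so that their sequences can be compared (RefSeq, GRCm38.p6, 250 bases before to 50 after the start, 5′ to 3′). Capitals mark matches on either strand to an ETS-type site (CCGGAAGT), an NRF1-type site (TGCGCA) or an E-box (CACGTG).
Timm9 promoter, chr12:71136626-71136925, minus strand: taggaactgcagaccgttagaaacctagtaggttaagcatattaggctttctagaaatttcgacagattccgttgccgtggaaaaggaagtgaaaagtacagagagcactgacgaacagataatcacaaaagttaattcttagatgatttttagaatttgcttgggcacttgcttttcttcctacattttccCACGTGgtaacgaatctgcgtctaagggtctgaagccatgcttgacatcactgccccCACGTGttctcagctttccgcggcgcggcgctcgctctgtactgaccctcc
Timm10 promoter, chr2:84826771-84827070, plus strand: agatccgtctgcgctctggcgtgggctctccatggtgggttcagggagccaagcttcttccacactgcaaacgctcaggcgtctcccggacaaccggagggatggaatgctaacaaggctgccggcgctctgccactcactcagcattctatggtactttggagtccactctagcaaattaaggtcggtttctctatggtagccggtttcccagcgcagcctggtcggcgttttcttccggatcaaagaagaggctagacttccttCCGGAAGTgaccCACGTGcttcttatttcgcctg
Timm13 promoter, chr10:80900920-80901219, minus strand: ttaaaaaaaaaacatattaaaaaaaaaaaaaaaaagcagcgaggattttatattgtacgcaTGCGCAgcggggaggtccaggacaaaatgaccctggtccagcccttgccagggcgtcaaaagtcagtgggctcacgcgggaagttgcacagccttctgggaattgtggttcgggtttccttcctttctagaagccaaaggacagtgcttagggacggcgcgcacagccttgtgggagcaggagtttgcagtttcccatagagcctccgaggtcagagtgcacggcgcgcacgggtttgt
Timm17b promoter, chrX:7899086-7899385, plus strand: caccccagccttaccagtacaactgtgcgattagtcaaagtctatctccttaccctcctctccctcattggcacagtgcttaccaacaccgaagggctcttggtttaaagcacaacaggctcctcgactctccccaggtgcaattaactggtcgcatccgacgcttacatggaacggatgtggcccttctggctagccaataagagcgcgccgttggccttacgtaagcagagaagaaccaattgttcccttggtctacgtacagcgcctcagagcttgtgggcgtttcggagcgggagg
The Timm9 window held an E-box at -58 and another at -1, counted from the start. Timm10 held an ETS-type site at +17 and an E-box at +29, Timm13 an NRF1-type site at -189, and Timm17b no match to these 3 motifs, so none of the 3 is common to all 4 windows. Over the 34 members found in the RefSeq table, 9 (26.5%) held the ETS-type site, against 4.31% of 27025 genes with windows of the same length. The E-box was in 5 (14.7% against 8.09%) and the NRF1-type site in 6 (17.6% against 8.79%), while the TATA box TATAAA was in 3 (8.82% against 15.7%), CCAAT in 10 (29.4% against 41.1%) and the YY1-type site AAGATGGC in 2 (5.88% against 3.19%). The ETS-type sites belonged to Mtx2, Pmpcb, Timm10, Timm10b, Timm23, Timm29, Timm8a2, Timmdc1 and Tomm70a, which ranged from the highest to the lowest log2 fold change with age (Timm10 1.69, Timm29 -0.57). Median GC content was 59.2% over 36 member promoters and 52.7% over all 32851, and a match is a description of letters, not a shown binding site.

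Of the TIM22 translocase, the pore gene Timm22 measured 51.7, 46.0, 66.6 and 54.1 CPM in young and 46.5, 81.3 and 158 CPM in old controls. Old controls 2 and 3 were above all young controls and old control 1 was not; without old control 3 the log2 fold change of 0.80 (SE 0.40) became 0.22. Timm29, a TIM22 subunit, had the lowest log2 fold change of the members, -0.57 (SE 0.43), with 91.1, 136, 58.1 and 116 CPM in young and 109, 55.8 and 37.3 CPM in old controls. Old controls 2 and 3 lay below all young controls, and old control 1 lay among them.

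The TIM23 genes had a median log2 difference of 0.54. Timm17b (chromosome X, 7899357 to 7908351, plus strand), which with Timm17a gives alternative partners of the pore, measured 76.8, 69.0, 58.5 and 64.3 CPM in young and 66.4, 169.9 and 219.6 CPM in old controls. Its young controls, young control 3 included, were close together, and old control 1 lay among them while the others were far above. The log2 fold change was 1.18 (SE 0.36), adjusted p 0.105 by edgeR's test. Timm17a measured 73.6, 103, 204 and 86.1 CPM in young and 45.7, 125 and 249.2 CPM in old controls, and old control 1 was the lowest of all 7. Timm23, the pore itself, measured 55.6, 42.2, 30.7 and 36.2 CPM in young and 40.4, 64.2 and 83.8 CPM in old controls, with a log2 fold change of 0.61 (SE 0.35). Timm50, the receptor for presequences, measured 138, 99.7, 42.6 and 122 CPM in young and 105, 162 and 171 CPM in old controls, with young control 3 far below the rest.

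In the import motor the median log2 difference was 0.52, and all 6 genes had higher means in old controls. Timm44, which tethers the motor to the pore, measured 87.3, 40.5, 17.8 and 73.0 CPM in young and 42.6, 129 and 74.5 CPM in old controls, spread so widely that the log2 fold change of 0.58 had an SE of 0.44. The J-domain genes Dnajc15 and Dnajc19, which stimulate the motor ATPase, were both highest among young controls in young control 3, at 141 CPM each, against 32.1 to 64.0 CPM in the others. Grpel1, its nucleotide exchange factor, showed the same library at 84.1, 125, 240.2 and 113 CPM in young and 101, 207 and 275 CPM in old controls. The motor ATPase Hspa9, which is not a member, averaged 361 ± 126.7 CPM (SD, n = 4) in young and 223 ± 46.0 CPM (SD, n = 3) in old controls. Its log2 fold change of -0.70 (SE 0.39) had the opposite sign to the median of the motor genes and did not pass (adjusted p 0.442 by edgeR's test).

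The TOM genes had a median log2 difference of 0.33. Tomm5, a small subunit that stabilises the pore, measured 46.0, 65.9, 148 and 52.5 CPM in young and 63.2, 151 and 268 CPM in old controls, and Tomm7, another small subunit, 71.8, 90.7, 374 and 71.9 CPM in young and 120.4, 242 and 282 CPM in old controls. Young control 3 was the highest of the 7 libraries for Tomm7, far above the other young controls. The pore Tomm40 measured 90.2, 44.3, 13.5 and 59.6 CPM in young and 64.6, 54.1 and 71.8 CPM in old controls, and young control 3 was the lowest of the 7. None of the TOM genes passed: the log2 fold change was 1.04 (SE 0.42) for Tomm5, 0.50 (SE 0.49) for Tomm7 and 0.29 (SE 0.58) for Tomm40. Of the receptors, Tomm20 had a log2 fold change of 0.33 (SE 0.34), Tomm22 of 0.43 (SE 0.34) and Tomm70a of -0.17 (SE 0.28). Tomm34 and Tomm40l had -0.28 and -0.42, and 64.34% of the exon bases of Tomm40l overlap Nr1i3 on the other strand, so its reads could not be assigned with certainty.

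The SAM pore Samm50 measured 78.6, 69.2, 59.6 and 129 CPM in young and 97.4, 151 and 111 CPM in old controls, log2 fold change 0.51 (SE 0.32), and the groups overlapped. For the processing peptidase the subunits had opposite signs: Pmpca, -0.46 (SE 0.35), and Pmpcb, the catalytic subunit, 0.42 (SE 0.41). The oxidoreductase Chchd4 measured 66.9, 93.3, 41.1 and 63.1 CPM in young and 69.5, 119 and 152 CPM in old controls, and its sulphydryl oxidase Gfer 28.9, 25.4, 40.9 and 32.1 CPM in young and 34.7, 46.1 and 64.0 CPM in old controls. Old controls 2 and 3 stood above all young controls for both MIA genes. Neither log2 fold change, 0.78 (SE 0.39) and 0.60 (SE 0.39), passed the test.

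Calls among the members depended on a few libraries. DESeq2 called 4 of the 35 members to which it gave an adjusted p, all higher (Timm9 adjusted p 0.0134, Timm17b 0.0282, Timm13 0.0325 and Timm10 0.0369), where 3.1% of genes were called higher. Without old control 1, edgeR called Timm10, Timm13, Timm17b and Tomm5 higher (1.5% of genes), and without young control 3 it called Timm10, Timm13 and Tomm5 (0.621%). Without young control 3, young CCCP 3 and old control 1 together, 14 members were called higher (38.9%, against 5.49% of genes) and Timm29 lower (4.3%). The 14 were Timm8b, Timm9, Timm10, Timm10b, Timm13, Timm17a, Timm17b, Timm22, Tomm5, Tomm7, Pam16, Dnajc15, Dnajc19 and Grpel1. The members' median then was 0.79 and that of all genes -0.40. That comparison set 3 young controls with a low share of reads not aligned uniquely against 2 old controls with a high share. A fit of all libraries with that share as a covariate (added after seeing the data) called 0 members, as the fit of all libraries without it did. Its median was 0.45 for members and 0.27 for all genes, with 27 members above 0 and 9 below, and the covariate was not fitted without the 3 libraries.

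**Figure D3:**
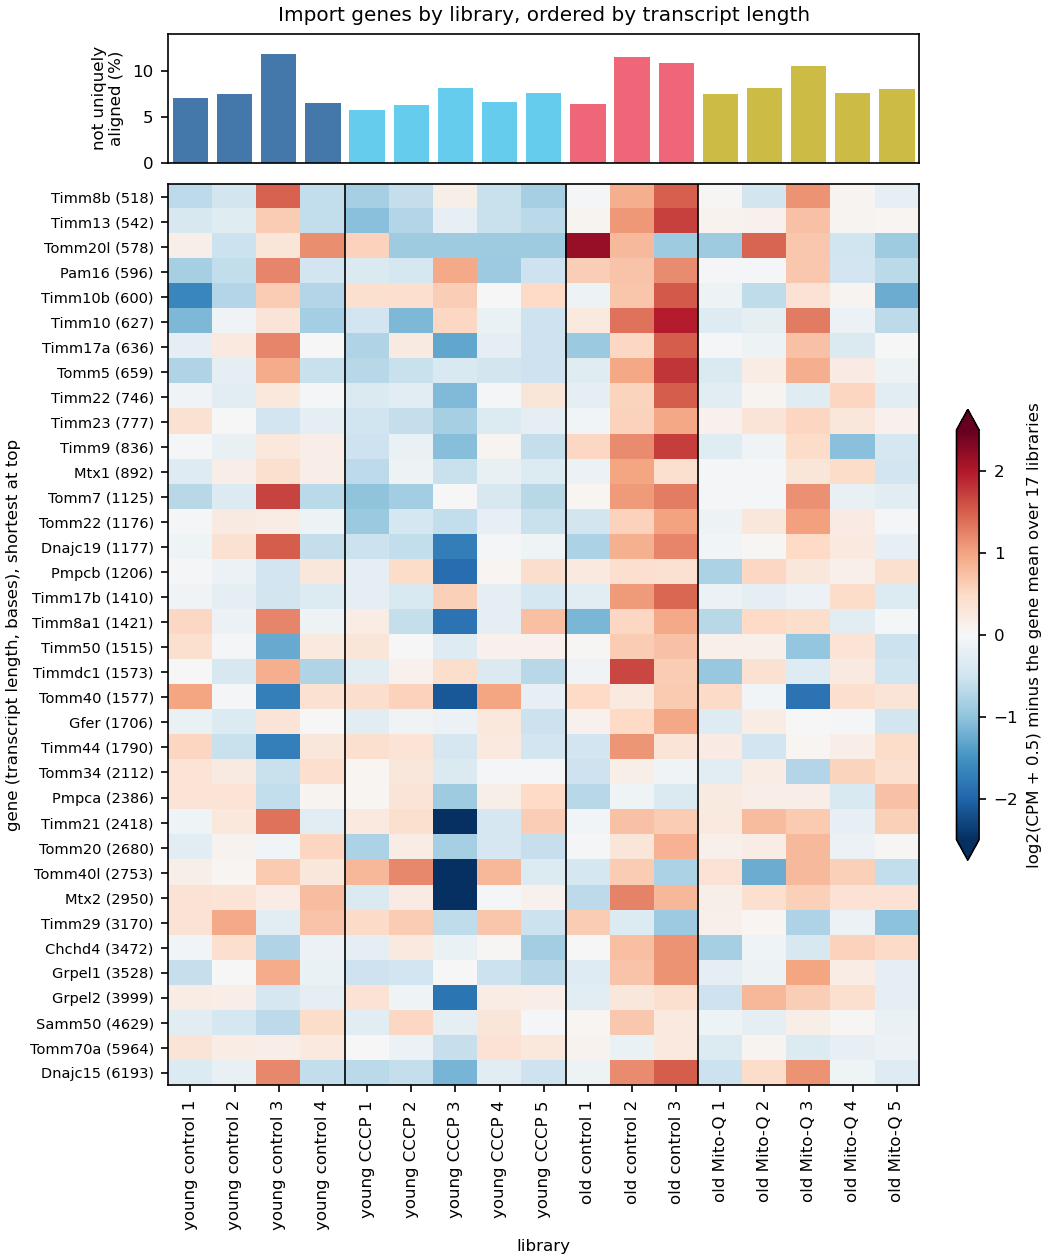
Upper panel: percent of reads not uniquely aligned in each library. Lower panel: log2(CPM + 0.5) of the 36 tested import genes minus the mean of the gene over 17 libraries, ordered by transcript length (bases, in parentheses), with vertical lines between groups and colours that saturate at the ends of the scale. Many short genes at the top are high in young control 3, old controls 2 and 3 and old Mito-Q 3, the libraries with the tallest bars.

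The members followed the libraries as well as the groups. Their summed level was 2284 to 3134 CPM in young controls, 1682 to 2258 with CCCP, 2179 to 4689.5 in old controls and 2186 to 3191 with Mito-Q. The libraries with a high share of reads not uniquely aligned had the highest sums of their groups: young control 3 at 3134 CPM, old control 2 at 3792, old control 3 at 4689.5 and old Mito-Q 3 at 3191 CPM. Old control 1, with a low share, was at 2179 CPM, below all young controls. The same 4 libraries had the highest sums of the 13 protein-coding transcripts of mitochondrial DNA, at 16309 to 31231 CPM, while the other 13 lay between 4763 and 13064 CPM. Whether the share has a part in the members' levels was not tested beyond the covariate above.

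Within libraries of a similar share the order of old and young was mixed. These splits were chosen after seeing the data. Old control 1 lay above young controls 1, 2 and 4 in 10 members (27.8%, against 39.6% of all genes) and below all of them in 10 (27.8%, against 26.2%). Old controls 2 and 3 lay above young control 3 in 22 members (61.1%, against 35.6% of all genes). Both orders held for Timm9, Timm10, Timm10b, Timm13 and Gfer, 13.9% of the members, which is close to the 13.5% of all genes. With 1 library on a side no test was made.

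Shorter members differed more with age. Among the 35 members with an average log2 CPM of at least 2, the median log2 difference between old and young controls was 0.80 for the 11 with transcripts under 1000 bases, 0.50 for the 11 between 1000 and 2000 bases and 0.22 for the 13 above 2000 bases. The classes of all genes, here and for GC content, hold the 11802 protein-coding genes with an average log2 CPM above 2. They followed the same order at lower values: 0.39 over 2097 genes, 0.22 over 3126 and -0.29 over 6579. In each class the members' median lay above that of all genes. By library, log2(CPM + 0.5) minus the gene's mean had these medians under 1000 bases. Members were at -0.40, -0.23, 0.63 and -0.49 in young controls 1 to 4 and -0.08, 0.91 and 1.52 in old controls 1 to 3. All genes were at -0.09 to 0.03 in young and -0.11, 0.58 and 0.66 in old controls. Old controls 2 and 3 had the high share of reads not uniquely aligned, and its part in the order by length was not tested. The Spearman correlation with length was -0.53 over the members and -0.30 over 11802 genes, given as a description because the genes share the same libraries. Dnajc15 was an exception, with the longest transcript of the members and a log2 difference of 0.80.

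**Figure D4:**
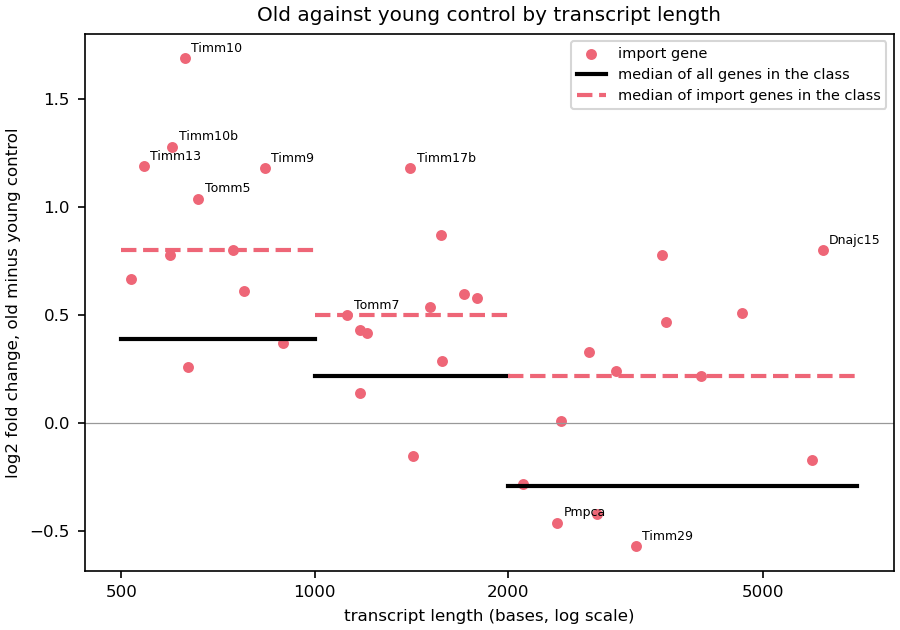
Log2 fold change of old against young controls (vertical axis) by transcript length in bases (log axis) for 35 import genes. Lines give medians within 3 length classes for the import genes (dashed, 0.80, 0.50 and 0.22) and for all protein-coding genes with an average log2 CPM above 2 (solid, 0.39, 0.22 and -0.29). The dashed line lies above the solid one in each class.

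Old mice given Mito-Q were compared with old controls. Import genes had lower means after Mito-Q, again most of all the small TIM chaperones, and 0 of 36 passed edgeR's quasi-likelihood test, where 0.542% of all genes did. The median log2 fold change was -0.49 for members and -0.12 for all genes. A positive value was found in 4 of 36 (Grpel2, Pmpca, Tomm34 and Tomm40l), against 44.9% of all genes. At an unadjusted p below 0.05, 6 members were lower (Timm9, Timm10, Timm13, Timm17b, Timm22 and Tomm5, 16.7% against 4.93% of genes) and 0 were higher (5.12% of genes). This comparison used the same 3 old controls as the first, so its members' values depend on the same libraries. The members' summed level was 2179 CPM in old control 1, below every Mito-Q library (2186 to 3191 CPM), and 3792 and 4689.5 CPM in old controls 2 and 3. The share of reads not uniquely aligned was 6.4%, 11.5% and 10.8% in old controls 1 to 3 and 7.5% to 10.5% with Mito-Q. Its part was not tested beyond the covariate. Of the immediate early genes 14 of 15 were called higher with Mito-Q, and of the neutrophil and granule genes 0 of 12, though their sums reached 14372 CPM, and their part was not tested.

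Timm9 again set the groups apart, with 37.5, 43.7, 63.9, 22.3 and 34.6 CPM in Mito-Q libraries 1 to 5, all below the lowest old control at 66.9 CPM. It was the only member whose groups did not overlap in this direction, as 2.2% of genes did, and its log2 fold change was -1.43 (SE 0.37) with an adjusted p of 0.0896 by edgeR's test. DESeq2 called it lower (adjusted p 0.00141, 0.75% of genes), and so did edgeR without old control 1, which also called Timm17b (0.171% of genes), or without old Mito-Q 3 (0.0209%). Timm10 measured 36.2, 38.4, 112, 40.9 and 28.8 CPM and Timm13 141, 144, 222, 139 and 137 CPM with Mito-Q. Old Mito-Q 3 was far above the others for both, and the remaining 4 Mito-Q libraries lay near or below old control 1. Their log2 fold changes were -1.18 (SE 0.47) and -0.87 (SE 0.34).

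Timm17b measured 73.3, 68.2, 72.9, 111 and 63.7 CPM with Mito-Q, where library 4 stood above the rest and the others lay close to old control 1. Its log2 fold change was -0.96 (SE 0.34), adjusted p 0.321 by edgeR's test. Timm22 had -0.80 (SE 0.38), which became -0.21 without old control 3. Timmdc1 had -1.11 (SE 0.59), with old control 2 far above the rest, at 12.3, 42.7 and 20.5 CPM in old controls and 6.46, 16.96, 10.3, 15.3 and 9.07 CPM with Mito-Q. Pmpca, the peptidase subunit that binds presequences, had the highest value, 0.60 (SE 0.34), with 134, 129, 128, 88.2 and 190.4 CPM with Mito-Q and 70.5, 106 and 88.6 CPM in old controls. Mito-Q library 4 lay within the range of the old controls and the others above it. Without young control 3, young CCCP 3 and old control 1, the 6 members with an unadjusted p below 0.05 were called lower (16.7% against 2.51% of genes), and the members' median was -0.76, that of all genes 0.33. That fit kept only old controls 2 and 3, with a high share of reads not uniquely aligned, against Mito-Q libraries of which only library 3 had one. With that share as a covariate and all libraries kept, 0 members were called. The median was then -0.31 for members and -0.09 for all genes, with 7 members above 0 and 29 below.

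Length classes mirrored those of the first comparison, which shares the old controls. The median log2 fold change of members with Mito-Q was -0.82 under 1000 bases, -0.55 between 1000 and 2000 and -0.22 above 2000 bases. All protein-coding genes of the same classes had -0.29, -0.10 and 0.20.

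Young mice given CCCP were compared with young controls. Most import genes had slightly lower means after CCCP, and 0 of 36 passed edgeR's quasi-likelihood test, where 0.718% of all genes did. The median log2 fold change was -0.24 for members and 0.21 for all genes, with 10 of 36 above 0 (58.7% of all genes). At an unadjusted p below 0.05, Dnajc19, Tomm7 and Timm17a were lower (8.33% against 4.8% of genes) and 0 were higher (6.35% of genes). Of the immediate early genes 14 of 15 were called lower with CCCP, and of 12 neutrophil and granule genes 1 was called higher, and their part was not tested.

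Tomm22, the central receptor that links TOM subunits, measured 53.4, 75.5, 66.1, 88.7 and 68.9 CPM with CCCP and 98.3, 119.8, 116 and 93.5 CPM in young controls. Every CCCP library lay below every young control, as in 2.89% of all genes, and no other member showed this. Its log2 fold change was -0.60 (SE 0.30) with an adjusted p of 0.468 by edgeR's test. Tomm20, the presequence receptor, measured 54.0, 107, 53.1, 70.7 and 63.5 CPM with CCCP, overlapping the young controls, which ran from 77.7 to 137 CPM, with a log2 fold change of -0.54 (SE 0.30). Tomm7 had a log2 fold change of -0.94 (SE 0.43) that rested on young control 3: its CCCP libraries measured 57.1, 62.9, 116, 87.3 and 71.7 CPM, and without that control the value was -0.02. Dnajc19, at 33.5, 31.5, 14.4, 47.4 and 45.3 CPM with CCCP, had -1.03 (SE 0.43), and Timm17a, at 51.7, 102, 35.2, 73.5 and 60.8 CPM, had -0.85 (SE 0.40). Young control 3 was the highest of the 9 libraries for both, and young CCCP 3 the lowest. Without young control 3 the value of Dnajc19 was -0.46 and that of Timm17a -0.44, and with young CCCP 3 left out as well, along with old control 1, they were -0.25 and -0.27.

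The highest values with CCCP belonged to Timm10b, 0.81 (SE 0.55), with 18.6, 18.8, 21.8, 14.2 and 19.8 CPM, Samm50, 0.25 (SE 0.28), and Timm17b, 0.19 (SE 0.32). Timm10b was above young controls 1, 2 and 4 in all 5 CCCP libraries, and young control 3, at 22.0 CPM, was above all 5. Without that control its value was 1.41. Timm17b was high in young CCCP 3 alone, at 123 CPM against 59.7 to 69.8 CPM in the other 4. The same library had very few reads of Timm21 (0.78 CPM), Mtx2 (1.36 CPM) and Tomm40l (0 reads), which in the other CCCP libraries were at 41.0 to 84.3, 41.0 to 61.0 and 2.56 to 8.52 CPM. With each library left out in turn the members' median was between -0.36 and -0.19. Without young control 3, young CCCP 3 and old control 1 it was -0.10 (0.09 for all genes), with 15 members above 0 and 21 below. In each of these fits 0 members were called.

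In the remaining contrast, old mice given Mito-Q were set against young controls, which also serve the comparisons for age and CCCP. The median log2 fold change of members was -0.01, that of all genes 0.01, and 18 of 36 members were above 0 (50.3% of all genes). None of the 36 passed edgeR's test, where 0.143% of all genes did, and Timm29 alone had an unadjusted p below 0.05 (lower, 2.78% against 4.09% of genes), with 0 higher (3.8% of genes). Timm29 measured 76.5, 73.0, 41.2, 63.5 and 34.6 CPM with Mito-Q, log2 fold change -0.80 (SE 0.37). The receptor Tomm70a measured 104, 139.8, 105, 116 and 121 CPM with Mito-Q and 167, 152, 149 and 158 CPM in young controls. Its groups did not overlap (lower, as in 1.36% of genes), and its log2 fold change of -0.42 (SE 0.24) had an adjusted p of 0.741 by edgeR's test. At the other end were Timm10 with 0.50 (SE 0.44), Grpel2, the other exchange factor of the motor, with 0.37 (SE 0.40), and Timm23 with 0.33 (SE 0.31).

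Homologous members were compared within each library, as the log2 ratio of their counts, which does not depend on library scaling. Over 8 pairs and 4 comparisons, 0 of 32 exact two-sided permutation tests passed after adjustment, and the smallest adjusted p was 0.457. With 3 against 4 libraries the smallest p possible is 0.0286, with 5 against 3 it is 0.0179 and with 5 against 4 it is 0.00794. A single test at its smallest p could therefore not pass after adjustment over 32 tests. The lack of calls does not show that the ratios were stable. The ratio of Pmpca to Pmpcb was 1.14, 1.24, 0.59 and 0.51 in young and -0.20, 0.21 and -0.01 in old controls on the log2 scale, so every old control lay lower. The difference of -0.87 had an unadjusted p of 0.0286 (exact permutation test). With Mito-Q the ratio was 1.76, 0.38, 0.62, 0.24 and 1.08, every library above the old controls, by 0.82 on average (exact permutation p 0.0714, adjusted 0.457), and 20.41% of the exon bases of Pmpca are shared with Inpp5e on the other strand. The ratio of Dnajc15 to Dnajc19 was 0.09, -0.25, 0.00 and 0.30 in young and 1.00, 0.61 and 0.61 in old controls on the same scale, a difference of 0.71 (exact permutation p 0.0286, adjusted 0.457), and the groups did not overlap. Groups did not overlap with age for Timm8a1 to Timm8b either, at -2.97 to -1.55 in young and -3.99 to -3.14 in old controls. That difference was -1.16 (exact permutation p 0.0571, adjusted 0.457), and Timm8a1 had as few as 10 reads in a library. The ratio of Timm17a to Timm17b ranged from -0.06 to 1.80 in young controls and from -0.54 to 0.18 in old ones (difference -0.95, exact permutation p 0.114), and the 1.80 was young control 3. Transcript lengths were 2386.5 and 1206.5 bases for Pmpca and Pmpcb, and 1421 and 518 for Timm8a1 and Timm8b. They were 6193 and 1177 bases for Dnajc15 and Dnajc19, and 636 and 1409.5 for Timm17a and Timm17b. The part of length in these ratios was not tested.

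Genes that work with the import machinery but are not members were counted from fixed lists. None passed edgeR's test in any of the 4 comparisons among 15 import partners (such as Hspa9, Romo1 and the inner-membrane peptidase genes), 6 MICOS genes, 10 cytosolic chaperones that deliver precursors and 10 regulators of nuclear mitochondrial genes (Nrf1, Gabpa, Yy1 and others). Medians for old against young controls were 0.03, 0.19, -0.45 and -0.47, beside 0.51 for the members and 0.16 for all genes. Of 13 genes of import stress and clearance, Atf4, the transcription factor of the integrated stress response, was the only one called, and it fell with CCCP from 215.0 ± 62.2 CPM (SD, n = 4) to 73.1 ± 15.9 CPM (SD, n = 5). Its log2 fold change was -1.56 (SE 0.29) with an adjusted p of 0.00331 by edgeR's quasi-likelihood test. Among the 13 protein-coding transcripts of mitochondrial DNA 12 were tested and 0 called, with medians of -0.27 for age and -1.30 for CCCP. Their sum was 31231 CPM in young control 3 and 7593 to 9744 CPM in the other young controls. It was 4763 to 10494 CPM with CCCP, and 6207, 18279 and 16309 CPM in old controls 1 to 3. Both medians include young control 3, and none without it is given.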

How the data were processed

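Reads were trimmed with Trim Galore and aligned with STAR 2.7 to GRCm38, per the submitters' processing notes. For each of 17 libraries the authors deposited a file of unnormalised read counts by Ensembl gene. The counting program, strand setting and annotation release are not given in the sources used here. Reads assigned to no gene (5 footer entries, 37.7% to 76.2% of reads) stayed out of totals and tests. GENCODE M21 named 54809 of 54838 genes. Counts were fitted together in edgeR 4.0.16 (R 4.3.3) with TMM factors, filterByExpr (minimum count 10) and robust quasi-likelihood F-tests, 1 mean per group, adjusted by Benjamini-Hochberg over 24523 genes and called below 0.05. DESeq2 1.42.0, other scalings and filters, a replicate block and omission of libraries were alternatives. On simulated counts for old against young controls, 1.5% of planted 2-fold, 19.4% of 4-fold and 54.5% of 8-fold changes were recovered over 21914 genes. These were planted in 67, 67 and 66 genes drawn from all genes averaging above 2 CPM, so the shares are not those for the members. Homologue ratios used log2((count + 0.5)/(count + 0.5)). No libraries of a group were duplicates (lowest chi-square per degree of freedom 20.9). Depth limits precision; the 3-read floor covers counting error only, since PCR reads without molecular identifiers are not independent molecules.

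Named members were the core subunits, any called member, the 3 highest and 3 lowest log2 fold changes of each comparison (average log2 CPM above 2) and, on the partner lists, called genes and Hspa9. Others, such as Tomm5, Timm8b, Grpel1, Dnajc15, Mtx2 and Timm21, were named after their values were seen. The members and lists were chosen with earlier results of these data known. A marker gene is not reported here and was left out of the sums. Promoters came from RefSeq (GRCm38.p6), where 34 of 38 members matched.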

Additional observations from a re-analysis of the deposited data

Results flagged for a closer look

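In 81 groups of 4 or 5 libraries tested for 27 named members, 9 had 1 library far from the others by Dixon's criterion at the 95% level, where chance gives about 1 in 20. Of these, 6 came from old Mito-Q 3, the Mito-Q library with the highest share of reads not uniquely aligned. It measured 112 CPM for Timm10 (group median 38.4), 222 for Timm13 (141), 144 for Timm17a (84.7), 167 for Tomm20 (103.6), 209.5 for Tomm22 (118) and 256 for Tomm7 (112). Young control 3 measured 374 CPM for Tomm7, where the median of the young controls was 81.3 CPM. Tomm5, Timm8b, Grpel1 and Dnajc15 were not among the 27 and had no such test. Young control 3 was the highest young control for each of them, at 148, 158, 240.2 and 141 CPM. For Timm17b, old Mito-Q 4 measured 111 CPM (median 72.9) and young CCCP 3 measured 123 CPM (median 69.7).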

How the results depend on the processing

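The medians of the members kept their sign under all alternatives for old against young controls (0.30 to 0.79), Mito-Q against old controls (-0.79 to -0.28) and CCCP (-0.36 to -0.10). For Mito-Q against young controls it lay between -0.08 and 0.10. Of the other scalings, upper-quartile factors moved the median of all genes most with age, from 0.16 to 0.28, and that of the members from 0.51 to 0.60. Without old control 1 the median of all genes with age was -0.35. Calls depended more on the settings. For old against young controls, 1 member was called with no filter on low counts, 4 with DESeq2 and 15 without young control 3, young CCCP 3 and old control 1. Leaving out single libraries gave 0 to 4. All genes called in that comparison (415) became 1403 with DESeq2, 186 with only the 2 groups fitted and 2520 without the 3 libraries, and 125 to 684 when single libraries were left out. For Mito-Q against old controls, 1 member was called with DESeq2, 1 with at least 10 reads in 8 libraries, 6 without the 3 libraries and 0 to 2 without single libraries. All genes called there (133) became 545 with DESeq2, 1135 without the 3 libraries and 79 to 142 without single ones. With CCCP the 176 genes became 324 with no filter, 633 with DESeq2 and 111 with only the 2 groups fitted. For Mito-Q against young controls the 35 genes became 90 with no filter, 221 with DESeq2, 118 without the 3 libraries and 14 to 34 without single ones. The cause of these shifts was not tested. Of homologue pairs 0 were called under any setting run, but a single pair at its smallest possible p could not have passed after adjustment. Replicate numbers did not pair the libraries (correlations of same-numbered libraries ran from -0.11 to 0.292), so the fit with a replicate block is given here only: it called 2 members higher with age, Timm13 and Timm10, and 0 in the other comparisons. None of the members was called in the main fit, so no called main value could change sign. Of 27 named members, main values changed sign under at least 1 alternative for 4 with age and 9 for Mito-Q against old controls. They did so for 14 with CCCP and 15 for Mito-Q against young controls. With age these included Dnajc19, from 0.14 to -0.26, and Timm17a, from 0.26 to -0.18, with the covariate, and Timm8a1, from -0.15 to 0.68, without the 3 libraries. Dnajc19 and Timm17a were called higher without the 3 libraries (1.15 and 1.12), so their signs differed between alternatives. Depth limits what can be said of Tomm6, Timm8a2 and Tomm20l.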

Other observations

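Young control 3 and old Mito-Q 3 departed from their own groups in similar members. Relative to the other young controls, young control 3 was higher by 2.26 on the log2 scale for Tomm7, 2.05 for Timm8b, 1.63 for Dnajc19 and 1.59 for Dnajc15, and lower by the signed values -2.16 for Tomm40, -1.81 for Timm44 and -1.47 for Timm50. Old Mito-Q 3, relative to the other Mito-Q libraries, had 1.28, 1.27, 0.49 and 1.26 for the first 4 and -2.13, -0.04 and -0.98 for the others. Across 35 members the Pearson correlation of the departures was 0.76, with the same sign in 27, and across 11802 genes it was 0.23. These correlations are across genes, which share the libraries and are not replicates. The same departure of old Mito-Q 3 correlated less with the difference between old and young controls (0.34 over members, 0.06 over all genes). Young control 3 is part of the young mean and enters that difference with the opposite sign. This lowers the correlation by construction, so it cannot be set against the 0.76.

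By GC content of the transcript, the departure of young control 3 had a median of 1.49 over the 6 members under 45% GC, 0.71 over the 10 between 45% and 50% and -0.18 over the 19 above 50%, beside 0.32, -0.17 and -0.73 over all genes. The departure of old Mito-Q 3 had medians of 0.40, 0.89 and 0.14 over members and 0.46, 0.14 and -0.35 over all genes. The difference between old and young controls had the opposite order to young control 3 in the same classes, with medians of 0.19, 0.45 and 0.58 over members and -0.24, -0.11 and 0.10 over all genes. Young control 3 is part of the young mean, so part of this opposite order is fixed by construction.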
